A study of Mus musculus with 40 samples.

Results

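Hbb-b2, the beta-minor globin gene of the mouse diffuse haplotype, is 1 of 6 adult globin genes counted in 40 RNA-seq libraries from 20 mice. It was followed by name through its exon and its intron counts, which are 2 of the 18 count columns. The gene was chosen by measured values of these data, namely its exon level per alpha count, its intron counts beside those of Hbb-b1 and its counts in mice of the other haplotype. The libraries came from Ter119+ cells, erythroid cells pulled from bone marrow or spleen with magnetic beads against a surface antigen of the red cell lineage. All mice were C57BL/6J per the labels. They were wild type (WT) or heterozygous for Hbb th3 (Hbb[th3/+], written th3/+ here) and carried the diffuse or the single Hbb haplotype, which gives 8 groups of 5 libraries with the 2 tissues. The study asked how far the haplotypes modify the severity of beta-thalassemia. Mice of each group are numbered 1 to 5 here, and each number is the same mouse in both tissues, by the mouse codes in the table.

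Adult hemoglobin is a tetramer of alpha and beta chains, and erythroid cells keep the output of both chains close to balance. The mouse diffuse haplotype carries a beta-major gene, Hbb-b1, and a beta-minor gene, Hbb-b2, that differ in sequence, whereas the pair on the single haplotype, Hbb-bs and Hbb-bt, is nearly alike. The Hbb th3 allele is an engineered deletion of adult beta genes, and heterozygous mice are a model of beta-thalassemia, in which beta chains run short, alpha chains stay unpaired and red cell maturation fails in part. Introns are removed soon after transcription, so intron reads come mostly from unspliced RNA and exon reads mostly from mature mRNA. RefSeq's gene table for GRCm38.p6, the same base assembly as mm10, lists Hbb-b2 (gene ID 15130) on chromosome 7 from 53494 to 54867, a span of 1374 bases, and Hbb-b1 from 38285 to 39684, a span of 1400. These positions lie in a numbering apart from that of Hbb-bt, which the same table places on chromosome 7 from 103812524 to 103813923. The sequence on which the first pair is numbered is not named there.

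Each library held between 10110962 and 32381045 exon counts in all, over the 6 genes. Diffuse libraries held 1146530 to 3783725 Hbb-b2 exon counts and 2095 to 9482 Hbb-b2 intron counts, which leaves little counting error beside the differences among mice. Adult globin counts dominated every library by construction, because the table lists globin genes alone, and the Ter119+ label could not be checked against other markers. All levels below are therefore per alpha exon count, that is over Hba-a1, Hba-a2 and reads shared by this pair. A level per alpha count is a ratio of counts, not of molecules, and in sorted bulk samples fewer cells that express a gene cannot be told apart from less RNA of it per cell.

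In mice that carried it, Hbb-b2 mRNA was present at about the same level in both tissues and was lower in thalassemic mice. In WT bone marrow there were 0.472, 0.476, 0.649, 0.440 and 0.446 Hbb-b2 exon counts per alpha exon count in mice 1 to 5, a mean of 0.497 ± 0.0866 (SD, n = 5). In th3/+ bone marrow the values were 0.235, 0.263, 0.253, 0.268 and 0.249, with a mean of 0.254 ± 0.0129 (SD, n = 5). The thalassemic values were all below the WT values, and they were also closer together. WT mouse 3 stood well above the other WT mice.

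Spleen gave the same order. The WT spleen values were 0.447, 0.440, 0.483, 0.441 and 0.540, a mean of 0.470 ± 0.0428 (SD, n = 5). The th3/+ spleens had 0.250, 0.274, 0.259, 0.290 and 0.250, a mean of 0.265 ± 0.0173 (SD, n = 5). Again the groups did not overlap. Over all 8 groups the level ran from WT diffuse bone marrow through WT diffuse spleen, th3/+ diffuse spleen and th3/+ diffuse bone marrow down to the single-haplotype groups. WT bone marrow and WT spleen overlapped in their values, as did the thalassemic pair, and the only gap among diffuse groups was that between genotypes.

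**Figure D1:**
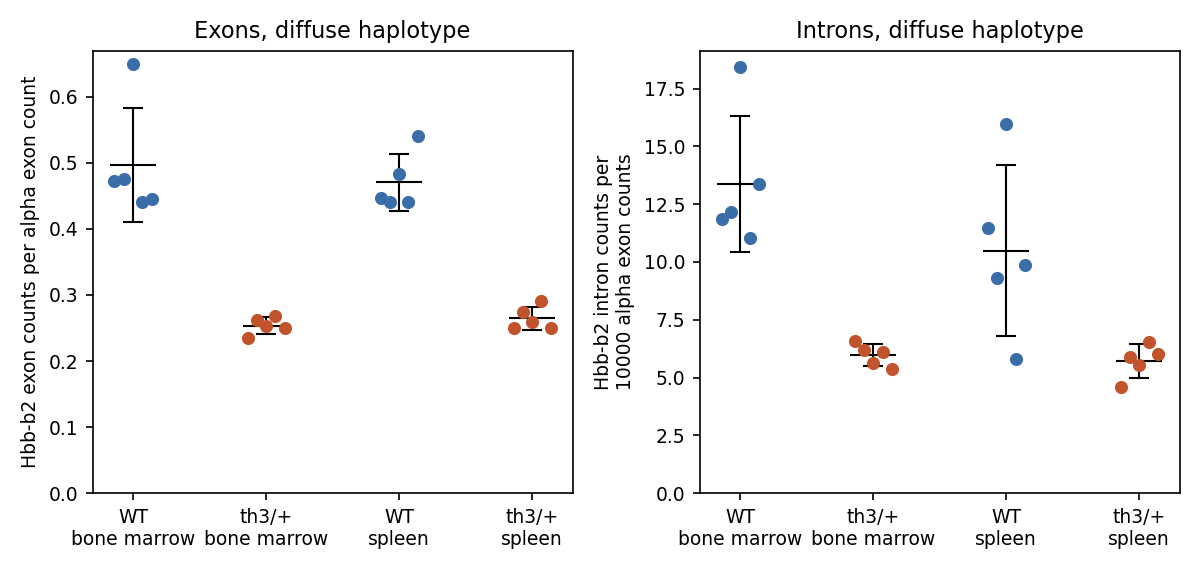
Hbb-b2 exon counts per alpha exon count (left axis from 0) and Hbb-b2 intron counts per 10000 alpha exon counts (right) in the 4 diffuse groups. Each point is 1 library, the horizontal bar is the mean and the whiskers are 1 SD over 5 mice. In exons every th3/+ library lies below every WT library in the same tissue, and in introns the only WT library among the th3/+ values is mouse 4 in spleen.

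The exon level, the intron level, the intron percent and the shares of Hbb-b2 in diffuse mice were among the values by which the gene was chosen, so their differences between genotypes are a description, with an effect size and its error and with no test. In edgeR's model of the 20 diffuse libraries, with the alpha sum as offset, the log2 fold change of Hbb-b2 exon counts was -0.97 in bone marrow (SE 0.09), a change of -48.9%, and -0.83 in spleen (SE 0.09), a change of -43.7%. Over all features of that model 6 of 12, or 50%, had an edgeR adjusted p under 0.05 in bone marrow, and 4 of 12, or 33.3%, in spleen. The exon and intron counts of Hbb-b2 are among the 12, so these shares are no test of the gene and no background apart from it. Hbb-b1, the major gene of the pair, changed by -57.1% in bone marrow and by -50.4% in spleen (edgeR adjusted p = 1.99e-07 and 9.57e-07). The size of the difference depends on alpha counts as the yardstick. With the sum of all globin exon counts as offset the log2 fold changes of Hbb-b2 were -0.16 and -0.17 in bone marrow and spleen, and with TMM factors, which centre the listed features on each other, they were 0.01 and -0.02.

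Intron counts of Hbb-b2 were also lower in thalassemic mice. Per 10000 alpha exon counts, WT bone marrow had 11.9, 12.2, 18.4, 11.03 and 13.4 Hbb-b2 intron counts in mice 1 to 5, and th3/+ bone marrow had 6.59, 6.21, 5.63, 6.09 and 5.37. The groups were fully apart. The log2 fold change was -1.16 (SE 0.20), a change of -55.3%.

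In spleen the WT values were 11.5, 9.32, 15.95, 5.78 and 9.87 Hbb-b2 intron counts per 10000 alpha exon counts, and the th3/+ values were 4.59, 5.88, 5.56, 6.54 and 6.00. WT mouse 4 lay within the thalassemic range, so these groups overlapped. The log2 fold change was -0.88 (SE 0.20), and the difference of the mean log2 ratios was -0.81. The spread among WT spleens was wide, with an SD of 3.70 against a mean of 10.5 (n = 5). The log2 fold changes were -0.35 and -0.23 in bone marrow and spleen with all globin exon counts as offset, and -0.18 and -0.06 with TMM factors.

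Among the other listed features, the exon counts of Hbb-b1 followed Hbb-b2 exons most closely over the 20 diffuse libraries. Their root mean square difference was 0.13 on the log2 scale of counts per alpha count, each centred on its own mean. The next was the intron count of Hbb-b2 itself, at 0.28.

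Hbb-b2 took a small share of the exon counts of its pair. Of Hbb-b1 plus Hbb-b2 exon counts, Hbb-b2 made up 14.8% to 15.9% in WT bone marrow, 16.8% to 19.2% in th3/+ bone marrow, 14.4% to 17.7% in WT spleen and 17.4% to 18.6% in th3/+ spleen. These are shares of counts that were not divided by transcript length. Reads assigned to the diffuse pair but to neither gene came to at most 0.0114% of the pair's exon counts and 0.907% of its intron counts. In bone marrow all 5 th3/+ libraries lay above all 5 WT libraries, with a log2 odds difference of 0.25. In spleen 3 of 5 did, with a difference of 0.17. The 12 ratio and share comparisons of the 4 genes and both tissues include those of Hbb-b2. Of these 12, 0 had an adjusted exact permutation p under 0.05, a share of 0%, with 3 under 0.05 before adjustment. A single comparison could not pass here, because the smallest p of that test, 0.00794, exceeds 0.05 once adjusted alone over 12. The count of 0 therefore does not show that the genotypes are alike.

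Among intron counts the balance of the pair was different, and Hbb-b2 took a much larger part. In WT bone marrow Hbb-b2 made up 38.3%, 26.9%, 34.04%, 29.2% and 37.3% of Hbb-b1 plus Hbb-b2 intron counts in mice 1 to 5. In th3/+ bone marrow it made up 55.6%, 43.5%, 36.96%, 44.01% and 34.01%. In WT spleen the values were 35.8%, 39.1%, 36.7%, 57.9% and 65.7%, and in th3/+ spleen they were 42.9%, 46.8%, 40.2%, 40.1% and 34.8%. In each of the 20 libraries the intron share was above the exon share of the same library. Hbb-b2 exceeded Hbb-b1 in introns, with over 50% of the pair, in 3 libraries, th3/+ bone marrow mouse 1 and WT spleen mice 4 and 5.

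As a within-library difference in log2 odds, the intron share stood above the exon share by 1.42 ± 0.311 in WT and 1.77 ± 0.486 in thalassemic marrow (each the SD over 5 mice). The corresponding differences for spleen were 2.21 ± 0.909 in WT and 1.68 ± 0.261 in thalassemic mice. This contrast was one for which the gene was chosen, so it carries no test. The table does not give the lengths of the introns counted for either gene, and a longer or better mapped intron raises a share of counts. Between genotypes the log2 odds of the intron share alone differed by 0.60 in bone marrow, where 3 of 5 th3/+ libraries lay above all WT libraries, and by -0.36 in spleen, where the groups overlapped. Without WT spleen mice 4 and 5, a choice made after their values were seen, the spleen difference was 0.23, in the other direction.

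**Figure D2:**
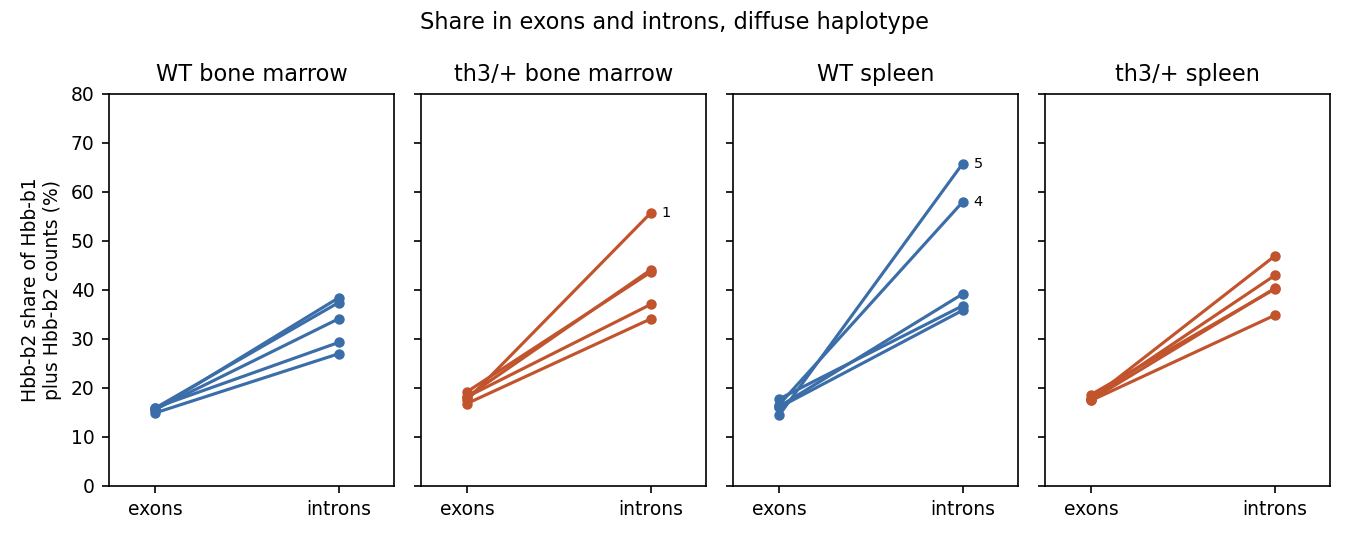
Share of Hbb-b2 in Hbb-b1 plus Hbb-b2 counts (percent) in exons and in introns of the same library, for the 4 diffuse groups. Each line is 1 library. Every line rises, and the numbered mice, th3/+ bone marrow 1 and WT spleen 4 and 5, are the 3 above 50% in introns.

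Per exon count of its own gene, Hbb-b2 had more intron counts than Hbb-b1 in each of the 20 diffuse libraries. Hbb-b2 intron counts came to 0.268% ± 0.0226 of its exon counts in WT marrow and 0.236% ± 0.0258 in thalassemic marrow (each the SD over 5 mice). They came to 0.223% ± 0.0757 in WT spleens and 0.215% ± 0.0206 in thalassemic spleens. For Hbb-b1 the same percent was 0.101 ± 0.0185 and 0.0704 ± 0.0154 in WT and thalassemic marrow, and 0.0617 ± 0.0455 and 0.0688 ± 0.0178 in WT and thalassemic spleens.

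The intron percents of Hbb-b2 overlapped between genotypes. The log2 difference of th3/+ from WT was -0.19 in bone marrow, with 4 of 5 th3/+ libraries below all WT libraries. The fifth, th3/+ mouse 1, had 0.280%, the highest of its group. In spleen the difference was 0.02, and it was -0.29 without WT mice 4 and 5.

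Those WT spleens had few globin intron counts per exon count, and the intron percent of Hbb-b2 was less low there than those of Hbb-b1 and the alpha genes. In mice 4 and 5 Hbb-b1 intron counts were 0.0189% and 0.0160% of exon counts, against 0.0635% to 0.123% in the other WT spleens. Alpha intron counts were 0.0242% and 0.0302% of alpha exon counts there, against 0.119% to 0.208%. Hbb-b2 intron counts were 0.131% and 0.183% of its exon counts, against 0.212% to 0.331%. Over all 20 diffuse libraries the highest Hbb-b2 percent was 2.52-fold the lowest, while the same quotient was 7.66 for Hbb-b1 and 11.6 for the alpha sum. Without those 2 spleens the quotients were 1.80, 2.59 and 2.96. The quotient of the Hbb-b2 percent and the Hbb-b1 percent ranged from 2.11 to 11.4, and up to 5.92 without them. Among WT spleens of the single haplotype, mice 4 and 5 also had the lowest alpha intron percents, 0.0538% and 0.0506% against 0.106% to 0.146% in the other 3. RNA quality and the stage of the cells in these spleens are not recorded in the table, and their part in these values was not tested.

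**Figure D3:**
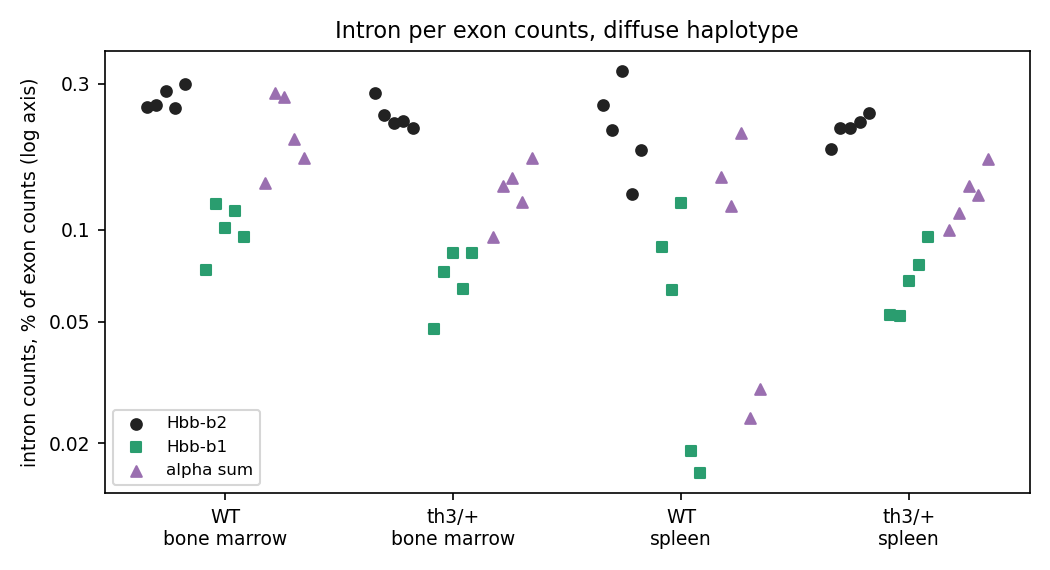
Intron counts as a percent of exon counts of the same gene (log axis) for Hbb-b2, Hbb-b1 and the alpha sum in the 4 diffuse groups, with 1 point per library. Hbb-b2 lies above Hbb-b1 in all 20 libraries, and in the WT spleens of mice 4 and 5 the Hbb-b1 and alpha points lie between 0.0160% and 0.0302%. The Hbb-b2 points there, 0.131% and 0.183%, are the lowest Hbb-b2 values of the 20 libraries.

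Spleen and bone marrow did not differ in Hbb-b2 mRNA by a margin that passed. The edgeR log2 fold change of Hbb-b2 exon counts, spleen against bone marrow, was -0.08 in WT (SE 0.09, adjusted p = 0.668) and 0.06 in th3/+ mice (SE 0.09, edgeR adjusted p = 0.668). The 95% intervals of the exact permutation test were -0.33 to 0.16 and -0.06 to 0.20. These intervals, and the others between tissues in this paragraph, do not use the pairing of tissues by mouse. In either genotype 0 of 12 features passed in edgeR, a background of 0%, with 4 in WT and 0 in th3/+ mice at an unadjusted p under 0.05, and DESeq2 called 1 in WT and 0 in th3/+ mice. All 5 th3/+ mice had the higher level in spleen, as did 2 of 5 WT mice. For Hbb-b2 introns per alpha count, 0 of 5 WT mice and 2 of 5 th3/+ mice were higher in spleen. The log2 fold change of these introns in WT was -0.35 (SE 0.20, edgeR adjusted p = 0.203), and with the mouse as a block it was -0.40 (edgeR adjusted p = 0.0849). The intron percent of Hbb-b2 differed by -0.34 in WT (95% interval -0.92 to 0.20) and by -0.13 in th3/+ mice (-0.37 to 0.07), and its exon share by 0.07 (-0.07 to 0.19) and -0.01 (-0.12 to 0.10) on the log2 odds scale. Of the 12 ratio and share tests between tissues 0 passed the exact permutation test, a background of 0%, with 0 at an unadjusted p under 0.05, and limma called 0, with 1 at an unadjusted p under 0.05.

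How far the th3/+ effect on Hbb-b2 differed between tissues is described within mice, by the difference of spleen and bone marrow. It carries no test, since the gene was chosen on these values. For the exon level the th3/+ effect was 0.13 weaker in spleen on the log2 scale. Without WT bone marrow mouse 3, the edgeR log2 fold change in marrow was -0.85, beside -0.83 in spleen with all libraries. The intron share had the widest gap of the 5 measures, -0.95. That gap includes WT spleen mice 4 and 5. Without them, a choice made after their values were seen, the genotype difference in spleen was 0.23, beside 0.60 in marrow.

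In mice of the single haplotype Hbb-b2 appeared only as a trace, at a level and with a makeup that are described here by genotype. In WT bone marrow there were 57.4, 59.6, 70.3, 48.5 and 32.3 Hbb-b2 exon counts per 1000000 alpha exon counts in mice 1 to 5, from 125 to 438 counts per library. In th3/+ bone marrow there were 276.1, 276.1, 342, 353 and 245 on the same scale, from 1531 to 3703 counts. All 5 th3/+ libraries lay above all 5 WT libraries, and the mean of 298 ± 46.5 was 5.57-fold that of 53.6 ± 14.2 (SD, n = 5 each). This contrast was named when the gene was chosen, so it is a description with no test. The th3/+ mean came to 0.118% of the Hbb-b2 level in th3/+ diffuse bone marrow, and the WT mean to 0.0108% of that in WT diffuse bone marrow.

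The WT single spleens had 125, 381, 165, 85.5 and 211 Hbb-b2 exon counts per 1000000 alpha exon counts, and the th3/+ single spleens had 322, 257, 257, 243 and 188. The groups overlapped, with WT mouse 2 above all th3/+ spleens, and the quotient of the means was 1.31. Per adult beta exon count in place of alpha the quotients of th3/+ to WT means were 12.2 in bone marrow and 2.15 in spleen, where beta counts were themselves lower in th3/+ mice. The WT spleen traces spread widely, with a mean of 193 ± 115 (SD, n = 5).

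Hbb-b1, the other diffuse gene, went the opposite way in the same libraries. Its trace in bone marrow was 300 to 450 exon counts per 1000000 alpha exon counts in WT and 121 to 184 in th3/+ mice. In spleen it was 517 to 1775 in WT and 166 to 251 in th3/+ mice. In each tissue the highest th3/+ value for Hbb-b1 was below the lowest WT value.

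By the makeup of the trace the genotypes did not overlap in either tissue. Hbb-b2 made up 12.1%, 14.3%, 13.5%, 13.9% and 8.85% of Hbb-b1 plus Hbb-b2 exon counts in WT single bone marrow, and 68.4%, 69.01%, 66.9%, 65.8% and 67.01% in th3/+ single bone marrow. In WT single spleens the share was 14.97%, 17.7%, 16.7%, 14.2% and 18.2%, and in th3/+ single spleens it was 56.2%, 59.2%, 59.1%, 53.9% and 53.1%. The WT traces held Hbb-b2 at 12.5% ± 2.22 and 16.3% ± 1.72 (SD, n = 5 each) in bone marrow and spleen, beside 15.5% ± 0.425 and 16.1% ± 1.20 (SD, n = 5 each) in WT mice that carried the diffuse haplotype. In the th3/+ single mice the mean share was 67.4% ± 1.29 in marrow and 56.3% ± 2.83 in spleens (each the SD over 5 mice), which had no counterpart in any diffuse group. In the single libraries the column for reads shared by the diffuse pair held 0 throughout, and how reads of the traces were assigned is not given in the sources used here.

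**Figure D4:**
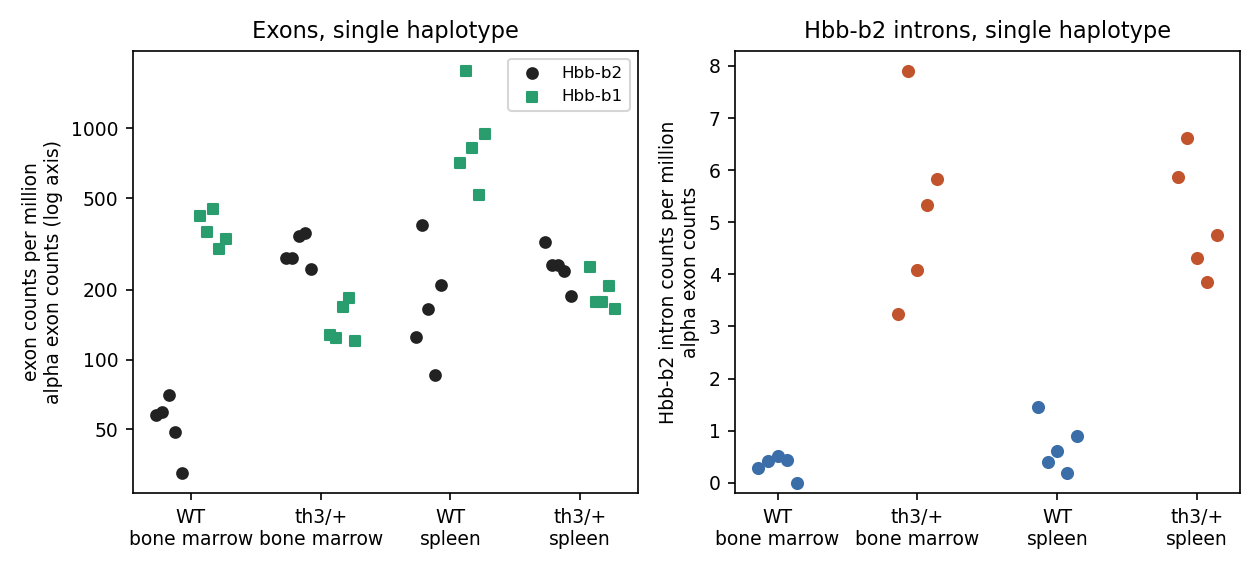
Traces of the diffuse genes in single-haplotype libraries, with 1 point per library. Left, Hbb-b2 and Hbb-b1 exon counts per 1000000 alpha exon counts (log axis). Right, Hbb-b2 intron counts per 1000000 alpha exon counts. Hbb-b2 is above Hbb-b1 in all 10 th3/+ libraries and below it in all 10 WT libraries, and the th3/+ intron values of 3.25 to 7.90 all exceed the WT values of 0 to 1.46.

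Hbb-b2 intron counts were scarce in WT single mice and regular in thalassemic ones. WT bone marrow libraries held 1, 3, 2, 3 and 0 Hbb-b2 intron counts, and th3/+ bone marrow libraries held 18, 50, 37, 56 and 61. WT spleen libraries held 7, 2, 3, 1 and 5, and th3/+ spleen libraries held 50, 46, 30, 30 and 45. All 5 th3/+ libraries had more per alpha count than all 5 WT libraries in both tissues. Summed over each group, the rate per alpha exon count in th3/+ mice was 15.0 times that in WT mice in bone marrow (222 counts against 9) and 7.32 times in spleen (201 against 18). This is a description with no test, as for the exon counts. Without WT spleen mice 4 and 5, which had the low alpha intron percents, the spleen quotient was 6.28 (201 counts against 12), and all 5 th3/+ spleens were still above the other WT spleens. The quotient of mean exon levels in spleen was then 1.13.

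The traces had more intron counts per exon count than the same genes had in carriers of the diffuse haplotype. Hbb-b2 intron counts were 1.82% ± 0.756 of its exon counts in th3/+ single marrow and 2.04% ± 0.476 in th3/+ single spleens (each the SD over 5 mice). The Hbb-b1 trace had a raised percent too, with 0.526% ± 0.274 and 0.624% ± 0.214 in the same libraries, beside 0.0704% and 0.0688% in th3/+ diffuse marrow and spleens. In WT single mice the Hbb-b2 percent, from 0 to 7 intron counts a library, averaged 0.563% ± 0.345 in marrow and 0.454% ± 0.418 in spleens, above the WT diffuse means of 0.268% and 0.223%. The Hbb-b1 percent in WT single mice, from 5 to 11 intron counts a library, averaged 0.427% in marrow and 0.187% in spleens. The WT diffuse means of Hbb-b1 were 0.101% and 0.0617%. By group means the percent was thus higher in the trace than in carriers in both genotypes for Hbb-b2 and for Hbb-b1. For Hbb-b2 in th3/+ mice the single-haplotype means were 7.71-fold and 9.46-fold those in th3/+ diffuse bone marrow and spleen. The lowest th3/+ single library, at 1.18%, lay above the highest diffuse library, at 0.331%. The intron share of the trace in th3/+ single mice, 84.7% to 90.3% in bone marrow and 78.1% to 83.3% in spleen, was again above the exon share in each library.

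The series of mouse codes was not balanced across the single groups. Of the 5 WT single mice, 4 have codes that start with JAW, while WT single mouse 3 and the 15 other mice of the study have codes that start with BZC. What the codes stand for is not stated. WT single mouse 3 had 70.3 and 165 Hbb-b2 exon counts per 1000000 alpha exon counts in bone marrow and spleen, a share of 13.5% and 16.7%, and 2 and 3 intron counts. In bone marrow its level was the highest of the WT mice and below the lowest th3/+ single value of 245, and its shares lay among those of the other WT single mice. Within BZC mice this is 1 WT mouse against 5, which gives no spread, so code series and genotype cannot be told apart further.

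The second beta gene of the single haplotype, Hbb-bt, had 0.409 ± 0.0356 exon counts per alpha exon count in WT and 0.204 ± 0.0168 in th3/+ single bone marrow (SD, n = 5 each), beside 0.497 and 0.254 for Hbb-b2 on the diffuse haplotype. Reads shared by Hbb-bs and Hbb-bt are left out of the Hbb-bt values, whereas such reads are nearly absent for Hbb-b2, so the levels are set side by side without a test.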

How the data were processed

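Stranded total RNA libraries were made from bead-selected Ter119+ cells, per the labels' protocols. The authors deposited raw read counts per globin gene, exons and introns apart, as whole numbers with no normalization. The submitters' processing notes name STAR 2.7.9a, STAR 2.5.3a, SAMtools, HTSeq and mm10 and give no roles. The strand setting and the handling of multiply mapped reads are not given in the sources used here. The shared columns (Hbb-diffuse, Hbb-single, Ambiguous) were taken as reads shared within a gene pair, which the headers do not state. The 32 value columns of derived sums and ratios were not used. Row names give group and mouse code but no replicate number, so rows were tied to groups only, and numbers 1 to 5 follow the order of the table and are not GEO's replicate numbers.

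The gene, the measures and the tests were chosen with earlier results of these data known. Hbb-b2 is named by that choice, other genes where a value stands beside it, and the 2 most similar features by the smallest root mean square difference. Tests between genotypes had been planned for Hbb-b2 in diffuse mice too, but since these values chose the gene, its p-values are not reported. Counts per alpha went through edgeR's quasi-likelihood test (edgeR 4.0.16, limma 3.58.1, R 4.3.3) on the 20 diffuse libraries and 12 features with a mean of at least 10 counts, without an abundance trend. P-values were adjusted by Benjamini-Hochberg over 48 tests of 4 contrasts, and 0.05 was the threshold. The SE is the log2 fold change over the square root of F. Ratios and shares were tested with two-sided exact permutation tests over 252 splits, whose smallest p is 0.00794, adjusted over 12 tests per family. Intervals are 95% and invert that test. Percent changes come from log2 values, and group values are arithmetic means. The scripts were checked on simulated data. Alternatives were DESeq2 1.42.0, other offsets, TMM, other sets of libraries, a mouse block, an exact test and leaving out single libraries. Tissues pair by mouse code. Over 12 features the deviations of the libraries of 1 mouse from their group means correlated by -0.84 to 0.92 (median 0.50) across 10 mice. Ratios were computed in Python 3.11.15 with numpy 2.4.6 and pandas 2.3.3, and plots drawn in matplotlib 3.10.9. The edgeR fit takes the 20 diffuse libraries of 10 mice as separate units and shares 1 estimate of the spread over both tissues. Its SEs and p-values therefore do not measure the spread between mice alone. Exact permutation p-values between genotypes rest on the spread between mice as labelled.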

Additional observations from a re-analysis of the deposited data

Results flagged for a closer look

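Of 36 groups of 5 values checked for a library far from the others, 2 held one, and chance alone gives about 1 in 20. WT diffuse bone marrow mouse 3 had 0.649 Hbb-b2 exon counts per alpha exon count, against 0.440 to 0.476 in the other mice of its group, a gap of 0.830 of the group's range. Th3/+ diffuse spleen mouse 4 had an Hbb-b2 share of 18.6% of Hbb-b1 plus Hbb-b2 exon counts, against 17.4% to 17.7% in the others, a gap of 0.725 of the range.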

How the results depend on the processing

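The lower Hbb-b2 exon level in th3/+ diffuse mice kept its direction under DESeq2, with only the groups compared, with all 40 libraries and without the count filter. It also did so with Hba-a1 alone or all globin counts as offset, as the exact test's difference of mean log2 ratios and with each library left out. This is no independent support, since the gene was chosen on these values. The exact test, limma with a mouse block and the omission of WT spleen mice 4 and 5 (either haplotype) were chosen after seeing the data. With 1 library left out it lay at -1.01 to -0.85 (marrow) and -0.86 to -0.77 (spleen). With TMM factors it was 0.012 in bone marrow, the opposite direction, and -0.021 in spleen. Those factors moved the median of the 12 features by 0.98 and 0.81. The all-globin offset moved it by 0.80 and 0.65, and this second shift follows from dividing by sums that hold the beta counts. Over the 12 features, those of Hbb-b2 among them, calls were 0 higher and 6 lower in bone marrow and 0 and 4 in spleen per alpha count. They were 3 and 2 in either tissue per all globin counts, and 3 and 0, and 5 and 0, with TMM. The intron difference was smaller in bone marrow and spleen with the all-globin offset (-0.352 and -0.230) and TMM (-0.177 and -0.061). As a difference of mean log2 ratios it was -0.810 in spleen, where the groups overlapped. It ranged over -1.22 to -1.02 and -1.03 to -0.67 with 1 library left out.

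The tissue difference in exon level, which did not pass, changed sign in WT with the all-globin offset (0.025), TMM (0.019) and WT bone marrow mouse 3 left out (range -0.13 to 0.037), and in th3/+ mice with TMM (-0.015). For introns per alpha count it ranged from -0.55 to -0.20 in WT, passing without spleen mouse 3 (edgeR adjusted p = 0.0220), and from -0.12 to 0.0040 in th3/+ mice. On the linear scale the spleen intron percent differed between genotypes by -0.0071 percentage points, opposite in sign to the log2 difference of 0.017. That log2 difference was -0.287 without WT mice 4 and 5, also reversed, and -0.16 to 0.18 with 1 library left out. In bone marrow it ranged from -0.25 to -0.15. The exon share lay at 0.22 to 0.28 in marrow and 0.12 to 0.21 in spleens, and the intron share in spleen was 0.226 without WT mice 4 and 5. Between tissues the th3/+ exon share ranged from -0.042 to 0.016 and the intron share from -0.24 to 0.081. Per beta count in place of alpha, the log2 trace folds in single mice moved to 3.61 and 1.10 for exons and 5.08 and 3.67 for introns in bone marrow and spleen, since beta counts were lower in th3/+ mice. Causes of the other changes were not tested.

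With the mouse as replicate block, the tissue differences in exon level were -0.067 in WT and 0.061 in th3/+ mice, and no call changed in edgeR or limma. The exact sign-flip test of 5 pairs cannot go below p = 0.0625. Between genotypes the libraries come from different mice and are not paired. The rows carry no replicate number, so no block by that number was fitted either. With 0 to 7 Hbb-b2 intron counts per WT single library, counting error is large for their intron percents.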
